A study of Mus musculus with 5 samples.

Results

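Mouse chromosome 2 carries 2246 of the 30398 RAP1 peaks in the deposited list (7.39%), and it was chosen by the rank and read number of its strongest peaks, since 6 of the 20 best-ranked peaks of the whole list lie there. All listed peaks whose chromosome is 2 are included, with coordinates in the mm9 build. Rank, positive reads and peak positions therefore describe the chromosome here and are not tested. The first listed peak starts at 3229970 and the last ends at 181747966, a span of 178.5 Mb.

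The material was embryonic fibroblasts of mixed genetic background, immortalised with SV40 large T antigen and grown in medium with serum and puromycin. Chromatin was immunoprecipitated with an antibody against RAP1 from 2 independent wild-type lines and from 2 independent lines lacking Rap1, which served as the negative control, and 1 input library was made without antibody. The peak list pools its reads into a positive and a negative set. Following the stated design, the positive set is taken here as wild-type reads and the negative set as Rap1-deleted reads; the column names say only positive and negative, and whether the input was added to the negative set is not given in the sources used here. No value exists for a single library, so nothing below has a spread between replicates, and intervals cover counting error only.

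RAP1 (encoded by Terf2ip) is a subunit of shelterin, the complex that coats the TTAGGG repeats of telomeres. It has little affinity for DNA by itself in mammals and reaches telomeres by binding TRF2. Outside telomeres, mammalian RAP1 has been described at sites within chromosome arms and as an influence on transcription. Mouse chromosomes have the centromere at one end, so that the low coordinates of chromosome 2 are the centromeric side and the high coordinates the free telomeric end.

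The peaks of chromosome 2 were short and modest in reads. The median length was 56 bp, the middle 50% ran from 38 to 79 bp, and the extremes were 29 and 563 bp. All peaks covered 173.8 kb. The median peak held 28 wild-type reads (interquartile range 24 to 34, full range 12 to 329). Forward and reverse reads were nearly equal in sum, with 33755 forward and 33922 reverse wild-type reads in the strand windows. These windows are the authors' read counts on each strand at or around a peak. Their width is not stated, and they can hold reads from outside the listed peak, so strand-window values are not limited to it. In 1824 peaks (81.2%) the distance between the forward and the reverse read maximum equalled the listed peak length, so that a typical peak runs from its forward maximum to its reverse maximum.

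Rap1-deleted reads were found at a minority of these peaks. In the strand windows, 380 of the 2246 peaks (16.9%, Clopper-Pearson 95% interval 15.4 to 18.5) had at least 1 Rap1-deleted read, close to the 18.8% of all listed peaks. Summed over the chromosome, the strand windows held 67677 wild-type and 2979 Rap1-deleted reads. After the factor of 3.32 by which the deposited fold columns scale the negative set, that is a ratio of 6.84 (95% interval 6.59 to 7.10). The same ratio was 5.63 (5.58 to 5.69) over the other 18 autosomes. Peaks were listed for an excess of positive reads, so the ratios are descriptive.

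Along the chromosome the peaks were spread over nearly every megabase, but unevenly. Of 179 bins of 1 Mb, 177 held at least 1 peak. The median bin held 11 peaks (interquartile range 8 to 17), the fullest held 35, and the variance of the bin counts was 4.48 times their mean. The 17 bins with 25 or more peaks make up 9.50% of the bins and hold 480 peaks (21.4%). At the other end, the 23 bins with 4 or fewer peaks make up 12.8% of the bins and hold 58 peaks (2.58%).

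**Figure D1:**
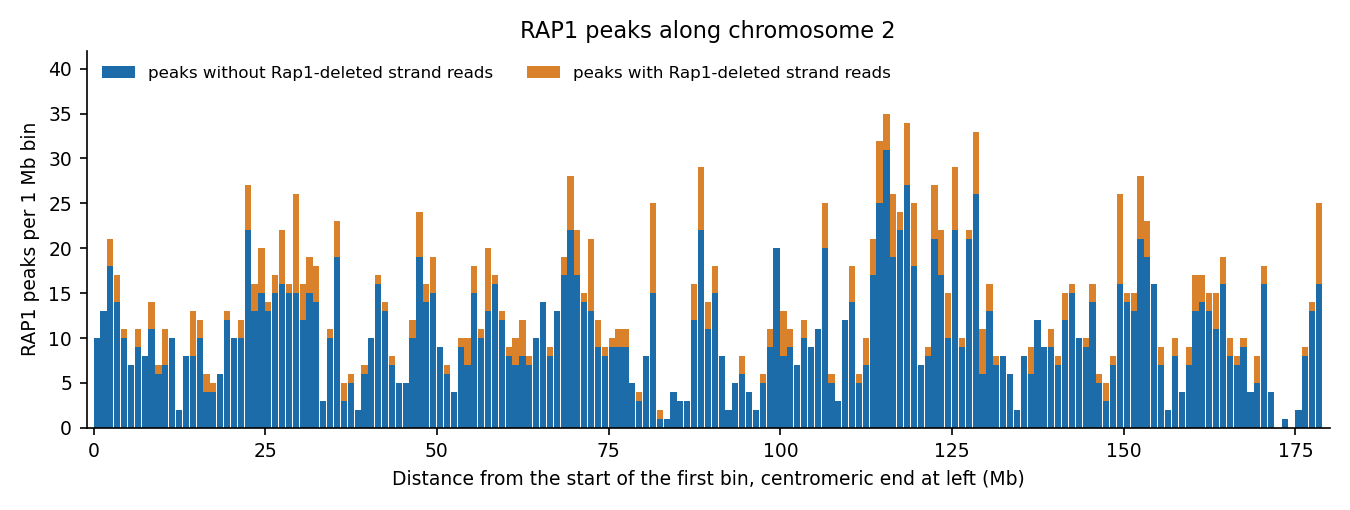
RAP1 peaks per 1 Mb bin (y axis) along chromosome 2 (x axis, Mb from the start of the first bin), split into peaks without (blue) and with (orange) Rap1-deleted reads in their strand windows. The 179 bins run from 0 to 35 peaks, with a broad high stretch past the middle and a gap shortly before the distal end.

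Averaged over 10 Mb, density varied several-fold. From 20 to 40 Mb the 2 blocks held 14 and 15.9 peaks per Mb. From 70 to 80 Mb the density was 16.0 per Mb, and it dropped to 6.6 per Mb in the next block, from 80 to 90 Mb. The richest block was 120 to 130 Mb, with 202 peaks (20.2 per Mb), and the block before it, from 110 to 120 Mb, held 169. The poorest full block lay near the telomeric end, from 170 to 180 Mb, with 56 peaks (5.6 per Mb). The short stretch from 180 to 182 Mb, the last of the list, returned to 19.5 per Mb.

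The densest 5 Mb ran from 117 to 122 Mb, with 151 peaks (30.2 per Mb, 2.40 times the mean of the chromosome). No bin in it held fewer than 24. The fullest single bins were 118 to 119 Mb with 35 peaks, 121 to 122 Mb with 34, 131 to 132 Mb with 33 and 117 to 118 Mb with 32. The bins 91 to 92 Mb and 128 to 129 Mb followed with 29 each. Rap1-deleted reads were present at these places too. In the densest 5 Mb, 27 peaks (17.9%, 12.1 to 24.9) had some, a share like that of the whole chromosome, and the strand ratio was 5.23 (4.62 to 5.93). Among the 6 fullest bins the share ran from 11.4% of peaks at 118 to 119 Mb to 24.1% at 91 to 92 Mb and at 128 to 129 Mb.

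Long stretches without peaks were few and scattered along the chromosome, with the 3 longest close together. Neighbouring peaks were a median of 41.0 kb apart (interquartile range 14.5 to 95.4 kb). Of 2245 gaps between neighbours, 26 (1.16%) reached 500 kb, and together these 26 took up 20.6 Mb, or 11.5% of the span. Over all 19 autosomes 1.70% of gaps were that long. The longest gap on chromosome 2, from 174387031 to 176900441, measured 2.51 Mb and was the 12th longest on any autosome. The next 2 in length lay just beyond it, 1160 kb from 178158678 to 179319120 and 1145 kb from 176900480 to 178045049. The 3 are separated by single peaks or small groups, and the bins from 174 to 179 Mb hold 7 peaks in 5 Mb, 0.111 times the mean density. None of those 7 peaks had Rap1-deleted strand reads, which allows a share of up to 42.9% when a count of 0 is bounded by 3 peaks (the Clopper-Pearson limit is 41.0%), and none held over 32 wild-type reads.

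The other long quiet run was 85 to 90 Mb, with 13 peaks in 5 Mb (2.6 per Mb, 0.207 times the mean). It contains the fourth longest gap, 1064 kb from 86040920 to 87104508. The peaks inside it were ordinary in reads, with a median of 24 and a maximum of 39 wild-type reads, and 1 of 13 had a Rap1-deleted strand read. The next 2 gaps in length were 860 kb from 55513255 to 56373656, shortly after a gap of 613 kb from 54420533 to 55033488, and 841 kb from 47723343 to 48564300, where the bins from 47 to 49 Mb held 5 peaks each. A shorter quiet run, from 98 to 100 Mb, held 6 peaks.

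Mouse chromosome 2 is known for long arrays of olfactory receptor genes, which serve the sense of smell and are mostly silent outside the olfactory epithelium. The RefSeq table of the GRCm38.p6 assembly names 287 protein-coding Olfr genes on chromosome 2, out of 1782 protein-coding genes there and 1110 such Olfr genes in the genome. The longest unbroken run is 123 Olfr genes in a row, and 718 of the protein-coding genes lie before it. Positions in that assembly cannot be set against mm9 coordinates, so no quiet run was assigned to these arrays, and whether reads can be placed uniquely in the quiet runs was not tested.

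The strongest peak of chromosome 2, from 57482074 to 57482124, is also the best-ranked of the whole list. It held 329 wild-type and 9 Rap1-deleted reads, 11.01-fold more after scaling (95% interval 5.73 to 24.3). All 9 Rap1-deleted reads were on the reverse strand, where the wild-type set had 199 reads, and the 130 forward wild-type reads faced none. It stood in an ordinary bin of 10 peaks, with its nearest listed neighbours 39.6 kb before and 62.4 kb after it. The peak with the next most reads had 134.

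The peak with 134 wild-type reads and no Rap1-deleted read, ranked 4 in the list, lies from 28040118 to 28040149. It is only 32 bp long, with 89 forward and 45 reverse reads, and is at least 13.4-fold higher in wild-type cells when the 0 is bounded by 3 Rap1-deleted reads (scaled to 9.96). It opens a stretch from 28 to 33 Mb that holds 3 of the 6 best-ranked peaks of chromosome 2. The second of these, ranked 13, lies from 29627305 to 29627382 with 76 wild-type and 0 Rap1-deleted reads over the peak, but 5 Rap1-deleted reads on its reverse strand window, a strand ratio of 4.58 (1.88 to 14.5). The last of the 3, ranked 12, lies from 32343068 to 32343149 with 90 wild-type and 2 Rap1-deleted reads over the peak, and a strand ratio of 4.37 (1.93 to 12.2) from 87 and 6 reads.

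The following values are for the whole stretch from 28 to 33 Mb, with those 3 peaks included. It held 95 peaks (19 per Mb, 1.51 times the mean density), with a median of 29 wild-type reads, and 5 of them (5.26%, 1.73 to 11.9) reached 50 reads, against 4.10% of the chromosome. The other 2 of the 5 were a 37 bp peak from 30650449 to 30650485, with 53 wild-type and 0 Rap1-deleted reads over the peak and a strand ratio of 1.81 (0.804 to 4.77), and a 36 bp peak from 32548997 to 32549032, with 55 wild-type reads and no Rap1-deleted read in any column. Rap1-deleted reads stood at 22.1% of the 95 peaks (14.2 to 31.8), and the bin from 32 to 33 Mb reached 42.3%, with 836 wild-type and 105 Rap1-deleted strand reads, a ratio of 2.40 (1.95 to 2.97). Their part in the read numbers of this stretch was not tested.

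The remaining peaks of chromosome 2 among the 20 best-ranked lie far apart. The one ranked 15, from 75508682 to 75508742, had 69 wild-type and 2 Rap1-deleted reads over the peak. The one ranked 17, from 181652083 to 181652137, had 79 and 0 over the peak, with 5 Rap1-deleted reads in the forward strand window and a strand ratio of 4.34 (1.77 to 13.8). It lies 95.8 kb before the end of the last listed peak. Counts over more of the list, which include those among the best-ranked 20, were less marked. Chromosome 2 has 9 of the 100 best-ranked peaks, in place 2 among the 19 autosomes. It has 71 of the 1000 best-ranked (7.10%), against its 7.39% of all peaks.

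Ordered by reads rather than rank, the next peaks were mostly short as well, with long ones among them. The third most read-rich, from 167459745 to 167460270, is 526 bp long and held 106 wild-type and 0 Rap1-deleted reads in every column, at least 10.6-fold higher, yet it is ranked 305. Its fullest window held 45 reads, against 329 for the top peak. Another, from 152646178 to 152646740, is the longest on the chromosome at 563 bp, with 84 wild-type and 0 Rap1-deleted reads over the peak, 28 wild-type reads in its fullest window and a rank of 8922. The fourth most read-rich is short instead, 30 bp from 118667644 to 118667673, with 97 wild-type and 2 Rap1-deleted reads and a rank of 32; it sits in the fullest bin of the chromosome.

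Of the other 4 peaks among the 12 richest in reads, 2 had no Rap1-deleted read in any column and another had 2. The peak from 173050320 to 173050376 had 85 wild-type reads and none from Rap1-deleted cells. That from 181293933 to 181294046, near the distal end, had 76 and none. That from 163820496 to 163820581 had 75 and 0 over the peak, and 67 and 2 in the strand windows. In contrast the peak from 152231820 to 152231909, with 87 wild-type and 0 Rap1-deleted reads over the peak, had 88 and 16 in the strand windows, a ratio of 1.66 (0.965 to 3.02) whose interval includes 1. The whole-peak column alone would not have shown those 16 reads.

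**Figure D2:**
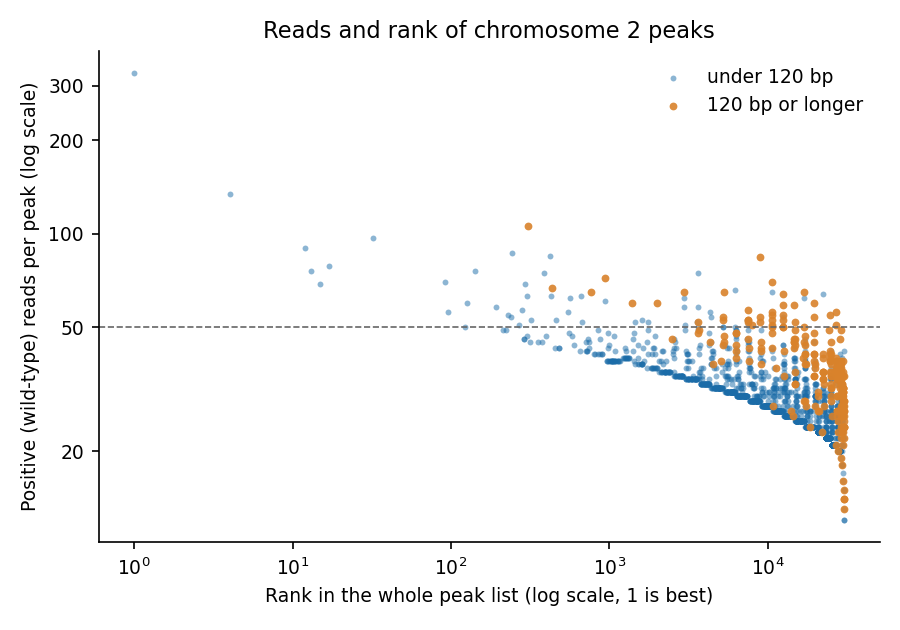
Wild-type reads of each of the 2246 chromosome 2 peaks (y axis, log scale) against rank in the whole list (x axis, log scale), for peaks under 120 bp (blue) and of 120 bp or longer (orange), with a dashed line at 50 reads. The 1 peak of 329 reads stands alone at rank 1, and most long peaks above the line lie past rank 1000.

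Read-rich peaks, those with 50 or more wild-type reads, numbered 92 on chromosome 2 (4.10%, 3.31 to 5.0), and 3 of them reached 100. At the threshold, 9 peaks held exactly 50 reads and 14 held 49. They were scattered over 59 bins, with a median of 0.992 Mb between neighbours, and the widest spacing between 2 of them was 11.7 Mb, from 38863653 to 50523409. The bin with the most was the last one, 181 to 182 Mb, with 6, and no other bin held over 3. None lay from 3 to 18 Mb, at the centromeric start of the list, and the first was in the bin from 18 to 19 Mb.

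The read-rich peaks were split by length at a set cut of 120 bp. Their lengths ran on through the cut, with 119 bp the longest below it and 124 bp the shortest above it. In 52 of them the peak was under 120 bp, with a median rank of 555, and the reverse maximum lay downstream of the forward one in all 52. The other 40 were 120 bp or longer, with a median rank of 10584.5 and a median of 27 reads in the fullest window, against 43 for the short ones. In 15 of the 40 (37.5%) the reverse maximum lay downstream. The same was seen among all 246 peaks of 120 bp or longer on the chromosome, where 174 (70.7%) had the reverse maximum upstream of the forward one, with a median spacing of -15 bp. Over the whole list it was 64.6% of such peaks. For all peaks of chromosome 2 the median spacing was 51 bp downstream.

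Rap1-deleted reads were found at a larger share of read-rich peaks. They stood in the strand windows of 36 of the 92 (39.1%, 29.1 to 49.9), against 344 of the 2154 with fewer wild-type reads (16.0%, 14.4 to 17.6). The strand ratio, which weighs both read sets, was 7.48 (6.55 to 8.57) in read-rich peaks and 6.79 (6.53 to 7.05) in the others, with overlapping intervals. Among peaks of 29 to 31 bp, of which the chromosome has 385, the share was 23.6% (19.5 to 28.2) and the ratio 4.46 (4.13 to 4.82).

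Set peak by peak against the Rap1-deleted cells, 2005 of 2246 peaks (89.3%) had a strand ratio of 2 or more, close to 87.4% of the whole list. This count largely restates how peaks were listed. Each peak has at least 10 wild-type reads per strand, so that the 1866 without Rap1-deleted strand reads are all at least 2.01-fold higher once the 0 is bounded by 3 reads. Among the 380 that did have such reads, 139 (36.6%) had a ratio of 2 or more, against 33.1% of such peaks in the whole list. In 11 of the 380 the whole interval lay above 2, and in 96 it lay below 2. A ratio of 1 or less was found for 118 peaks (5.25%), against 6.58% of the list, and in 28 the whole interval lay below 1. No share over the whole list is given for the counts by interval, so they are not read as particular to chromosome 2.

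The reads from Rap1-deleted cells were mostly on a single strand. In 346 of the 380 peaks (91.1%, 87.7 to 93.7) they occurred on 1 strand only. The share was 88.7% over the whole list. In 30 of the 380 there was only 1 such read, which can lie on 1 strand only. Peaks were listed on wild-type reads, with at least 10 on each strand, so the strand balance of the 2 read sets cannot be compared. Of 414 strand entries with such reads, the highest Rap1-deleted window lay inside the listed peak in 207 (50%). In all 414 (100%) the Rap1-deleted count of the strand equalled the count in that highest window, as in 99.9% of entries over the whole list. The whole-peak column shows Rap1-deleted reads for only 8 peaks, and 374 of the 2238 with 0 there have some in the strand windows. The reads were also concentrated, since the 114 peaks with 10 or more held 1702 of the 2979 (57.1%).

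The 5 peaks with the most Rap1-deleted reads had from 24 to 48 wild-type strand reads and ratios below 1. They were picked by their Rap1-deleted reads, so low ratios follow in part from that choice. That from 117463204 to 117463256 had 27 wild-type and 28 Rap1-deleted strand reads, a ratio of 0.290 (0.165 to 0.511), with all 28 on the forward strand. That from 122084742 to 122084946 had 48 and 27 (0.535, 0.327 to 0.892), with all 27 on the reverse strand. In the peak from 26820056 to 26820096, 24 wild-type reads faced 25 Rap1-deleted ones, split 12 and 13 between the strands, a ratio of 0.289 (0.158 to 0.527). The other 2 lie from 32163673 to 32163749 and from 128370824 to 128370914, each with 30 and 25 reads (0.361, 0.205 to 0.641). All 5 have 0 in the whole-peak Rap1-deleted column.

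Peaks in crowded bins had Rap1-deleted reads more often, as a description over bins that share the same pooled libraries. The share was larger in each fuller class of bins, at 3.45% (0.420 to 11.9) in bins of 0 to 4 peaks, 11.3% (8.13 to 15.2) in bins of 5 to 9, 14.2% in 10 to 14, 15.7% in 15 to 19, 19.3% in 20 to 24, and 25.4% (21.6 to 29.6) in bins of 25 or more. Mean wild-type reads per peak were 27.4 in the sparsest class and 31.8 in the fullest. The strand ratio was between 8.23 and 8.47 in the 3 classes from 5 to 19 peaks, 6.94 (6.28 to 7.70) in bins of 20 to 24 and 4.28 (4.02 to 4.56) in the fullest. Counted from the 1866 peaks without Rap1-deleted strand reads alone, the bins were still uneven, with a variance 3.26 times the mean. The part of read depth per region in this pattern was not tested.

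**Figure D3:**
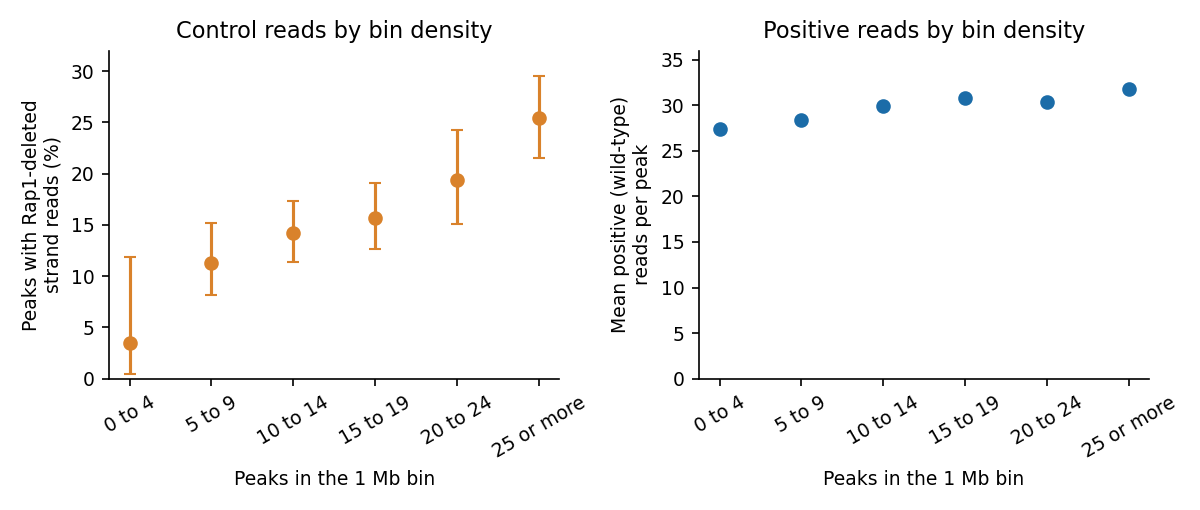
Percent of chromosome 2 peaks with Rap1-deleted strand reads (left, points with Clopper-Pearson 95% intervals) and mean wild-type reads per peak (right) by the number of peaks in the 1 Mb bin (x axis). The percentage goes from 3.45% in the sparsest to 25.4% in the fullest bins, and mean reads go from 27.4 to 31.8.

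In windows of 2 Mb the distal end held more peaks than the proximal end, with overlapping counting intervals. In the 2 Mb before the last listed peak, 43 peaks stood against 25.2 expected from the mean density, a ratio of 1.71 (exact Poisson 95% interval 1.24 to 2.30), in place 5 among the 19 autosomes. In the 2 Mb after the first listed peak, 26 stood against the same 25.2, a ratio of 1.03 (0.675 to 1.51). A distal 2 Mb ratio above 1 was found on 15 of the 19 autosomes and a proximal one on 9, so neither is particular to chromosome 2. The distal excess was steepest at the tip. The last 0.5 Mb held 18 peaks against 6.29 (2.86, 1.70 to 4.52), whereas the last 5 Mb held 50 against 62.9 (0.795, 0.590 to 1.05). The wider window takes in the gaps of 1160 and 1145 kb described above, so the dense tip follows the longest gaps of the chromosome. The Poisson intervals treat peaks as independent, whereas the variance of the 1 Mb bin counts was 4.48 times their mean. They are therefore too narrow for the spread between windows along the chromosome, and the end ratios are descriptive.

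The last 0.5 Mb of the distal end was also rich in reads from both sets. Of the 43 peaks in the distal 2 Mb, 6 held 50 or more wild-type reads (14%, 5.30 to 27.9), and all 6 lie in the last 0.5 Mb. Rap1-deleted strand reads stood at 9 of the 18 peaks of that last 0.5 Mb (50%, 26.0 to 74.0), and the strand ratio there was 4.57 (3.42 to 6.23). Over the distal 2 Mb such reads stood at 11 of 43 peaks (25.6%, 13.5 to 41.2), with a strand ratio of 6.09. The interval of that share includes the 16.9% of the whole chromosome, whose strand ratio was 6.84. The proximal 2 Mb held no read-rich peak, and none of its 26 peaks had a Rap1-deleted strand read, which allows a share of up to 11.5% when a count of 0 is bounded by 3 peaks (the Clopper-Pearson limit is 13.2%). With every peak that has Rap1-deleted reads left out, the distal 2 Mb ratio was 1.53.

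The outermost peaks followed this contrast only in part. At the proximal end the first 3 peaks, starting at 3229970, 3391177 and 3393472, had 31, 38 and 32 wild-type reads over the peak. In the strand windows they had 31, 43 and 32, with no Rap1-deleted reads in any column. The best-ranked peak in the proximal 2 Mb, from 3562390 to 3562420, had 38 and none and is ranked 2196. At the distal end, the outermost peak but 2, from 181667188 to 181667217, had 49 wild-type and 6 Rap1-deleted strand reads (2.46, 1.05 to 7.02). The outermost but 1, from 181747252 to 181747555, had 61 and 10 (1.84, 0.934 to 4.02). The last, of 29 bp, had 28 and 0 in the strand windows. Over the peak it held 16 wild-type reads, and it is ranked 30064. It thus had fewer reads and a worse rank than any of the first 3 peaks at the proximal end.

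Close groups of peaks were small on chromosome 2. Joined where neighbours lie up to 10 kb apart, there are 1845 groups. A single peak makes up 1532 of them, 242 are pairs, 55 hold 3, 15 hold 4 and 1 holds 5. Of the gaps between neighbours 17.9% were under 10 kb, against 20.4% on all autosomes. The group of 5 lies in the densest part of the chromosome, from 118580316 to 118596899, with 184 wild-type and 0 Rap1-deleted strand reads, at least 18.5-fold higher over the group. Another group of 4 nearby, from 118179261 to 118198192, had 148 and 0 (at least 14.9-fold).

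The next groups in size and reads included ones close to the control. The 4 peaks from 84576710 to 84579551, packed into 2.84 kb, had 183 wild-type and 32 Rap1-deleted strand reads, a ratio of 1.72 (1.18 to 2.59), and all 4 had Rap1-deleted reads. The 4 from 32541943 to 32549930 had 153 and 35 (1.32, 0.907 to 1.96). The 4 from 116997750 to 117013792 had 134 and 5 (8.07, 3.37 to 25.3). Over the 16 groups of 4 or 5, 7 had no Rap1-deleted strand read, 3 had an interval wholly above 2, 2 had one wholly below 2 and 4 spanned 2. Of all chromosome 2 peaks only 16.9% had such reads, so groups without any are not unusual. No count over groups of the whole list is given, and these counts are a description.

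**Figure D4:**
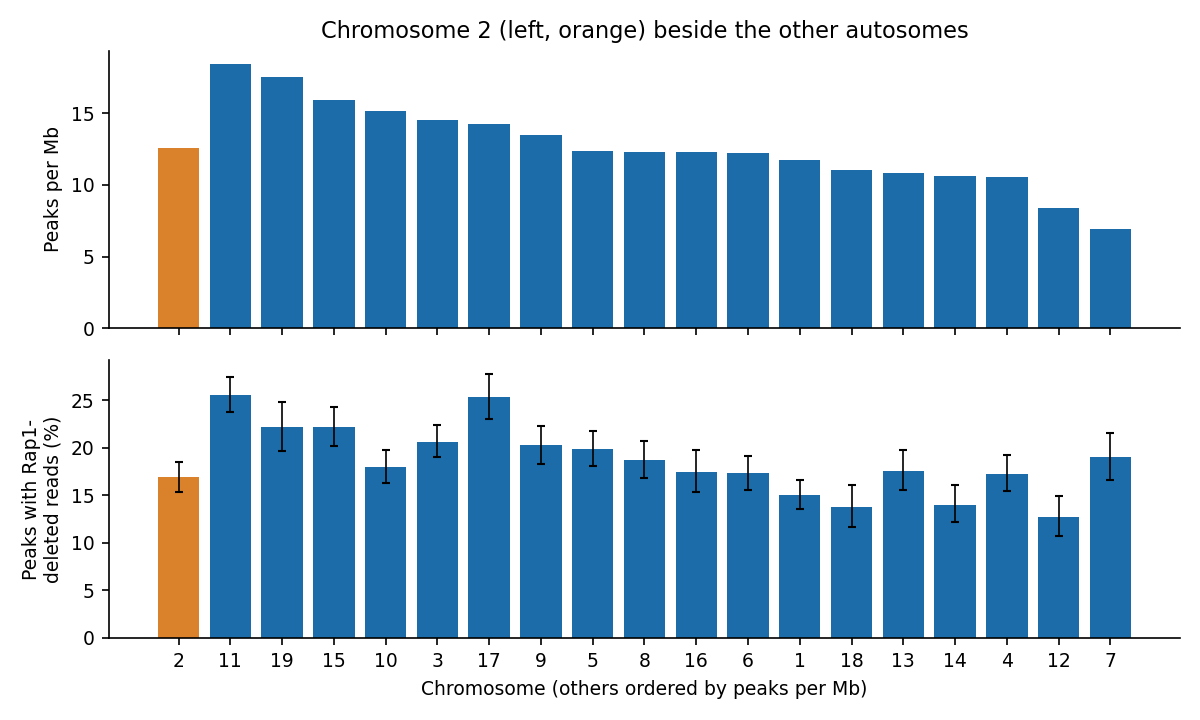
Peaks per Mb (top) and percent of peaks with Rap1-deleted strand reads (bottom, bars with Clopper-Pearson 95% intervals) for chromosome 2 (orange, left) and the other 18 autosomes (blue, ordered by density). Chromosome 2 has 12.6 peaks per Mb and 16.9%, between autosome extremes of 6.91 and 18.4 per Mb and of 12.7% and 25.6%.

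Beside the other autosomes, chromosome 2 stood near the middle in peak density and read-rich share, and further from it in other measures. Its density of 12.6 peaks per Mb was eighth of 19, against a median of 12.3 over the other 18. Its share of read-rich peaks, 4.10% (3.31 to 5.0), compared with 4.26% (4.02 to 4.50) over the other 18, and its median peak length of 56 bp equalled theirs. Its strand ratio was in place 5 from the top and its share of peaks with Rap1-deleted reads the 15th highest, at 16.9% (15.4 to 18.5) against 19% (18.6 to 19.5). Its peaks were among the more evenly spread, the variance over the mean of 1 Mb bins being 17th of 19. Chromosomes 1 and 3, with slightly more peaks at 2272 and 2275, have 0 and 1 of the 20 best-ranked. These places are descriptions of 1 pooled list and were not tested.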

How the data were processed

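Immunoprecipitated or input DNA was sequenced from 5 libraries, and 1 deposited peak list covers them all. Coordinates are mm9, a build named by the submitters' processing notes. For aligner, peak caller and filters the sources used here give nothing. Per the file headers, the deposited columns are counts of positive and negative reads over each peak and on each strand, a coverage signal (reads in the fullest window), a log2 fold and a q-value; p-values were not computed. These scores are the authors' and serve to describe and rank. No library totals were used, so depth is unknown. The factor on negative reads (3.32) was solved from the deposited log2 folds, with 140 of 141 solvable entries within 0.001. Ratios have exact conditional binomial, shares Clopper-Pearson and window counts exact Poisson 95% intervals; a 0 was bounded by 3 reads, over the peak or the group. PCR copies were not separated, so intervals cover counting error only.

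No test was run, because the reads that listed the peaks also give every value. Chromosome, regions and rules were chosen with earlier results of these data known. Named were the 12 peaks with most positive reads (ties broken by rank), chromosome 2 peaks among the best-ranked 20, the 6 densest bins, the 6 longest gaps, the 5 groups with most peaks (ties broken by reads), the 5 peaks with most negative strand reads, the outermost 3 at each end and the best-ranked in each end window. Quiet runs (bins of at most 4 peaks), the densest 5 Mb, the read-rich peaks from 28 to 33 Mb and the bin classes were chosen after values were seen. Without mm9 sequence or annotation, no sequence is printed and no peak assigned to a gene; a GRCm38.p6 RefSeq table gave gene names only. No leave-one-out fit exists, since libraries are pooled. Functions were tested on simulated data. Python 3.11.15, pandas 2.3.3 and SciPy 1.17.1 were used.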

Additional observations from a re-analysis of the deposited data

How the results depend on the processing

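Over 11 results and 38 alternatives, 23 values stayed within 1.5 times a count or within the counting interval, 14 moved and 1 changed direction. The excess in the distal 2 Mb (1.71) became 0.795 in a 5 Mb window, which holds 2 of the longest gaps; with the other alternatives it ran from 1.53 to 2.0. Among the better-ranked 50% of the list, chromosome 2 kept 1114 peaks, gaps of 500 kb or more numbered 70 instead of 26, the fullest bin held 19 instead of 35 and the longest gap was 4443 kb instead of 2513 kb, as fewer peaks give; the share with Rap1-deleted reads was 19.2%. At a false discovery rate of at most 0.01, 1235 peaks remained. Gaps of 300 kb or more numbered 91. Of 92 read-rich peaks, 54 had no Rap1-deleted read in any column (2 of the 5 from 28 to 33 Mb), and 14 peaks had 50 reads in the fullest window, a setting added after the data were seen. By the whole-peak column, 0.356% of peaks had Rap1-deleted reads and the summed ratio was 891, against 6.84 in the strand windows; unscaled, that ratio was 22.7, and it was 7.14 without the 5 peaks with the most Rap1-deleted reads. No paired analysis was possible because the list has no column per library. Leaving out single libraries was not possible for the same reason. The median peak held 28 wild-type reads and library totals were not used, which limits the precision of single peaks.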
